A study of Mus musculus with 41 samples.

Results

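The genes described here are 10 genes of the vessel wall, named by symbol: Emcn, Selp, Rgs5, Pecam1, Cdh5, Kdr, Tek, Tie1, Esam and Eng. They are 10 of the 22438 genes with a footprint row and of the 55385 genes with an RNA row. Emcn, Selp and Rgs5 were chosen because their values were much lower in mutant mouse embryonic fibroblasts (MEFs), with no numerical threshold given. Their MEF values are therefore a description, with no test, and the other 7 genes were eligible for testing in MEFs. All 10 genes were eligible for testing in embryos and cerebella, which did not enter the choice.

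The study compared mice and cells lacking Hbs1l, Pelo or Upf2 with controls. Hbs1l and Pelo encode partners that release stalled ribosomes, and Upf2 encodes a factor of nonsense-mediated mRNA decay. Ribosome profiling, which counts mRNA fragments protected by ribosomes (footprints), was performed on 30 libraries, and RNA sequencing on 11 MEF libraries. Whole embryonic day (E) 8.5 embryos of the strain C57BL/6NJ were Hbs1l-/- or wild type, and several embryos were pooled for each replicate. Postnatal day (P) 14 cerebella, 1 animal per replicate, were labelled Atoh-Cre; Hbs1l cKO or Atoh-Cre; Hbs1l +/+, on C57BL/6J, a strain that carries the n-Tr20 tRNA mutation. The Atoh1-Cre transgene is known for its activity in granule cell precursors. The conditional Hbs1l mutants were Hbs1l fl/-, so every cell of the mutant cerebella, vessel cells included, also carried a constitutive null allele, whereas controls were Hbs1l +/+. Primary MEFs, isolated from midgestation embryos, were Hbs1l fl/-, Pelo fl/fl or Upf2 fl/fl with a tamoxifen-inducible CAG-Cre ER, and control MEFs carried the Cre without a floxed allele. All MEFs, controls included, were exposed to tamoxifen and carried the B6J allele of n-Tr20. Each MEF replicate came from an individual embryo, as pooled dishes for footprints and as a single dish for RNA. Every group held 3 libraries except Pelo-/- RNA, which held 2.

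Blood vessels are lined by endothelial cells and wrapped by mural cells, which are pericytes on the smallest vessels. Endothelial cells are held together by junctional adhesion proteins, and they take survival and growth signals through receptor tyrosine kinases for VEGF and angiopoietins. Pecam1, Cdh5 (VE-cadherin) and Esam encode junctional adhesion proteins. Kdr (VEGF receptor 2), Tek (TIE2) and Tie1 encode receptor kinases, and Eng (endoglin) encodes a coreceptor for TGF-beta family ligands. Emcn encodes endomucin, a sialomucin of venous and capillary endothelium. Selp encodes P-selectin, which tethers leukocytes to activated endothelium and is also stored in platelets. Rgs5 encodes a regulator of G protein signalling and is a widely used pericyte marker.

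Total counts ranged from 2634480 to 7298812 in embryo footprint libraries, from 10919139 to 22591768 in cerebellum footprint libraries, from 5782990 to 25607974 in MEF footprint libraries and from 22713643 to 86425762 in RNA libraries. Footprints of the targeted gene were lower in Hbs1l-/- embryos (4.92 ± 3.57 CPM, counts scaled to a common library size, against 54.2 ± 4.96), in Hbs1l cKO cerebella (14.5 ± 1.504 against 40.8 ± 3.55), in Hbs1l-/- MEFs (1.93 ± 0.579 against 35.9 ± 3.45) and in Pelo-/- MEFs (2.61 ± 0.532 against 35.0 ± 3.32; mean ± SD, n = 3 throughout). Upf2 footprints went against the label, at 115 ± 2.88 CPM in the libraries labelled Upf2-/- against 53.8 ± 4.72 in their controls. Upf2 RNA was also higher, at 45.4 ± 16.6 against 17.9 ± 3.06 CPM, so these are called the libraries labelled Upf2-/- below. The counts cover the whole gene, including exons outside any deleted part, so they cannot show whether the floxed part of Upf2 was lost. Control MEF footprint libraries of the same number in the 3 pools were close to repeats of each other (chi-square per gene 1.10 to 1.19, 9 pairs), unlike those of different numbers (4.06 to 12.6, 27 pairs). The MEF comparisons therefore appear to share the same control cells, and the RNA comparisons share 1 control group.

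Emcn, Selp and Rgs5 lie on mouse chromosomes 3 and 1 of GRCm38. Emcn spans chr3:137341067-137432185, Selp chr1:164115264-164150026 and Rgs5 chr1:169655501-169695813, each on the forward strand (Gencode M21). The bases before their RefSeq start sites (GRCm38.p6) are printed because these genes were low together in mutant MEFs. Capitals mark matches to any of 5 short motifs: AGGAAG and CGGAAG, which are cores of ETS factor sites, AGATAA for GATA factors, GGGCGG for the GC box, and TATAAA for the TATA box, searched on both strands over the 250 bases before the start site, with no 2 motifs overlapping here.
Emcn, chr3:137340828-137341077: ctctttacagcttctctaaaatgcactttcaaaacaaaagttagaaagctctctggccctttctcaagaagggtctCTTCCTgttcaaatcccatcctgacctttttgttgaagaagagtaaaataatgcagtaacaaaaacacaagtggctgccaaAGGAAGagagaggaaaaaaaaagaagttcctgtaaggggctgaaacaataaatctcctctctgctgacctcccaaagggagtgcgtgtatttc
Selp, chr1:164115014-164115263: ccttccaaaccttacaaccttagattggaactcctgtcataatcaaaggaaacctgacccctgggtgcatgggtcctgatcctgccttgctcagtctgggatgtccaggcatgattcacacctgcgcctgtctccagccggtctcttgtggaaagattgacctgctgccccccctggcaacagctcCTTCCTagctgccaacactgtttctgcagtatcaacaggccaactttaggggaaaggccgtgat
Rgs5, chr1:169655251-169655500: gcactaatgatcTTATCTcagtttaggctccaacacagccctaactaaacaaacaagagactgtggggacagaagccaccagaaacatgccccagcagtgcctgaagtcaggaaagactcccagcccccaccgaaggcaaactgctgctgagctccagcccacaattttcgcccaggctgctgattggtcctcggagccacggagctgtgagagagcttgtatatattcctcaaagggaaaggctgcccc

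AGGAAG occurred before Emcn once on each strand, before Selp once on the reverse strand (printed as CTTCCT), and AGATAA occurred before Rgs5 once on the reverse strand (printed as TTATCT). No motif was common to these 3 windows. Among all 32851 promoters of the table, 29.5% held AGGAAG, 13.6% CGGAAG, 9.99% AGATAA, 32.7% GGGCGG and 12.4% TATAAA. Promoters were found for 7 of the 10 members, the other 4 being Kdr, Tek, Tie1 and Eng. AGGAAG was present in 4 of these 7 windows (Emcn, Selp, Tie1 and Eng), and CGGAAG (Tie1), AGATAA (Rgs5) and GGGCGG (Kdr) in 1 each, while TATAAA was in none.

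Whether the MEF cultures held the vessel cells that these genes mark was examined first, in control libraries. Footprint density, in CPM per coding kb, puts the genes on one scale of length, although embryo, cerebellum and MEF libraries were scaled separately. In control MEFs of the Hbs1l pool, Rgs5 was the most densely translated member at 175 ± 28.2, followed by Eng at 43.6 ± 1.02, Emcn at 27.4 ± 2.94, Kdr at 13.5 ± 1.56 and Selp at 5.797 ± 1.798. The junctional and angiopoietin receptor genes lay far below, with Tek at 0.459 ± 0.0642, Esam at 0.308 ± 0.154, Pecam1 at 0.186 ± 0.0471, Cdh5 at 0.1799 ± 0.101 and Tie1 at 0 in all 3 libraries. The intervals of Tek and Esam overlapped, as did those of Esam, Pecam1 and Cdh5. The defining endothelial markers Pecam1, Cdh5 and Tie1 were thus at or near 0 in cells where Emcn, Selp, Kdr and Eng were not, and the label of endothelial genes was not borne out by these markers in MEFs.

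In control embryos the order was different. Cdh5 was the highest at 61.0 ± 2.06 CPM per coding kb, then Kdr at 45.5 ± 2.23 and Rgs5 at 43.8 ± 6.29, which overlapped, then Esam at 31.0 ± 3.73, Tek at 19.3 ± 1.91, Emcn at 16.3 ± 1.98, Pecam1 at 14.6 ± 1.85, Eng at 11.4 ± 2.22 and Tie1 at 10.8 ± 1.38. Each of the 5 neighbouring genes from Tek to Tie1 overlapped the next within 1 SD. In control cerebella Rgs5 stood apart at 255 ± 27.8, followed by Esam at 44.2 ± 8.55, Eng at 32.2 ± 8.11, Cdh5 at 29.9 ± 6.88, Kdr at 23.2 ± 8.45, Pecam1 at 14.9 ± 1.20, Emcn at 14.6 ± 1.59, Tie1 at 7.64 ± 0.952 and Tek at 7.22 ± 1.68, with neighbours from Esam to Emcn and the pair Tie1 and Tek overlapping. Selp was nearly absent from both tissues. Its highest count was 3 in a control embryo library and 3 in a control cerebellum library, and all 3 Hbs1l-/- embryo libraries had 0, where a count of 0 allows up to 3 reads.

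**Figure D1:**
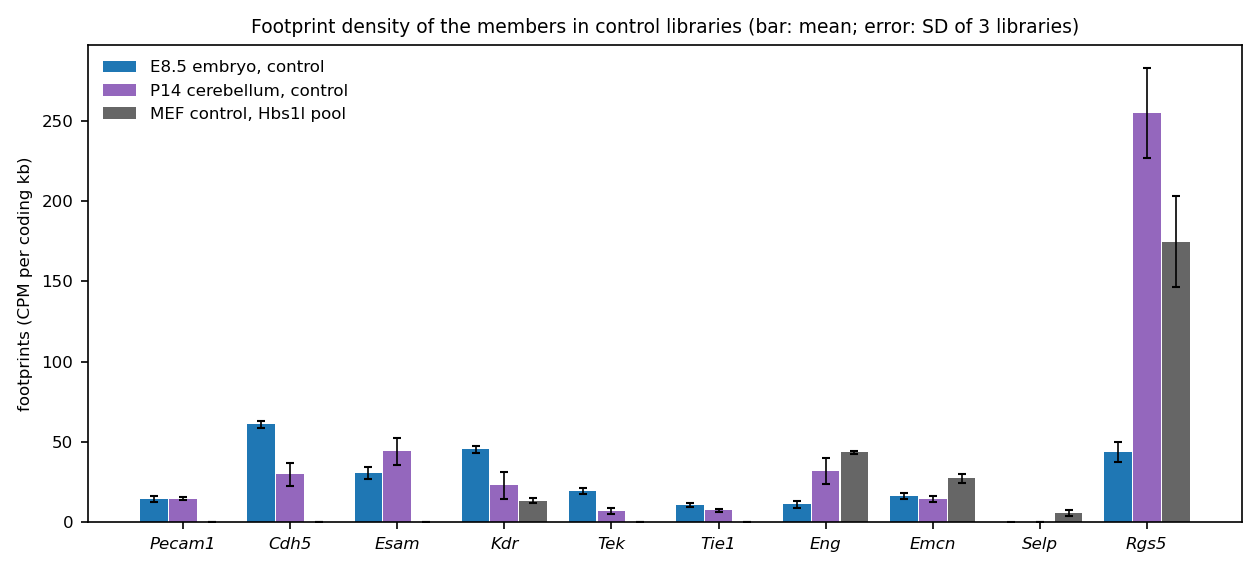
Footprint density (CPM per coding kb, y axis) of the 10 members (x axis) in control E8.5 embryos, control P14 cerebella and control MEFs of the Hbs1l pool; bars are means and error bars the SD of 3 libraries, with each tissue scaled separately. Pecam1, Cdh5, Esam, Tek and Tie1 are at 0.459 or lower in control MEFs, whereas Rgs5 reaches 175 there and 255 in the cerebellum.

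Emcn, Selp and Rgs5 carried fewer footprints in every mutant MEF library than in any control library. This is the pattern they were chosen by, and fewer cells of a type cannot be told apart from less RNA per cell in such bulk samples. Emcn was at 24.1, 20.4 and 19.9 CPM in the controls of the Hbs1l pool and at 3.36, 2.51 and 5.79 CPM in Hbs1l-/- MEFs. It was at 22.6, 18.8 and 25.4 CPM in the controls of the Pelo pool and at 0.601, 1.90 and 0.616 CPM in Pelo-/- MEFs. The libraries labelled Upf2-/- had 4.36, 1.96 and 2.60 CPM, against 23.0, 21.3 and 19.4 CPM in their controls. The fitted log2 fold change was -2.41 (SE 0.207) for Hbs1l-/-, -4.49 (SE 0.312) for Pelo-/- and -2.92 (SE 0.213) for the libraries labelled Upf2-/-. The Pelo-/- libraries were thus the lowest for endomucin, with the second of them above the other two.

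Selp was the scarcest of these genes in control MEFs, by the mean CPM of each pool, but not in Pelo-/- MEFs. Its control values were 13.8, 18.7 and 9.93 CPM in the Hbs1l pool, against 2.099, 2.01 and 5.35 CPM in Hbs1l-/- MEFs. In the Pelo pool 11.9, 21.6 and 10.3 CPM stood against 1.62, 1.10 and 0.847 CPM. The libraries labelled Upf2-/- had 1.01, 2.23 and 3.01 CPM, against 14.01, 16.9 and 9.58 CPM in their controls. The log2 fold changes were -2.13 (SE 0.312), -3.66 (SE 0.337) and -2.64 (SE 0.302), respectively. The counts behind the mutant values were small, from 6 to 60 reads per library.

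Rgs5 had the most footprints. It was at 87.8, 114 and 86.0 CPM in the controls of the Hbs1l pool and at 13.99, 15.1 and 22.0 CPM in Hbs1l-/- MEFs. The Pelo pool had 89.1, 107 and 78.0 CPM in controls and 3.18, 9.85 and 4.39 CPM in Pelo-/- MEFs. The libraries labelled Upf2-/- had 11.7, 18.3 and 20 CPM against 86.0, 115 and 79.4 CPM. The log2 fold changes were -2.49 (SE 0.153), -4.01 (SE 0.296) and -2.46 (SE 0.175). In each of the 3 genes the fold was thus larger in Pelo-/- than in Hbs1l-/- MEFs, by -2.08 (SE 0.441) for Emcn, -1.52 (SE 0.567) for Selp and -1.52 (SE 0.376) for Rgs5 on the log2 scale, values given with no test.

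**Figure D2:**
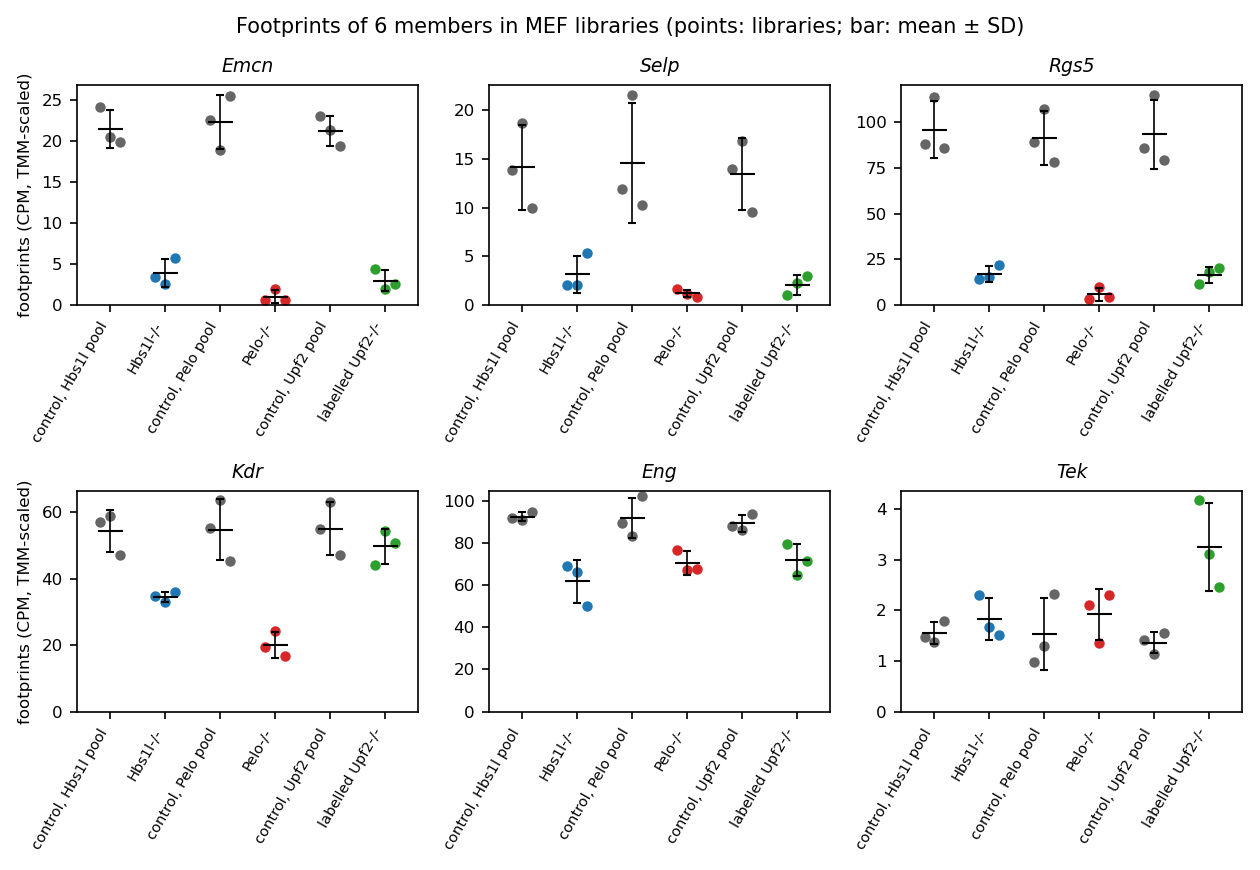
Footprints (CPM after TMM scaling, y axis) of 6 members in the MEF libraries of the 3 pools (x axis); points are libraries, and bars give the mean and SD of 3 libraries. Emcn, Selp and Rgs5 are lower in every mutant library than in any control, Kdr separates in the Hbs1l and Pelo pools, Eng in all 3 pools, and Tek is higher in the libraries labelled Upf2-/-.

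The RNA of the same 3 genes did not follow the footprints in the same way in each mutant. In TPM, transcript abundance scaled for transcript length and library size, Emcn was at 8.87, 12.9 and 8.38 in controls, at 0.991, 1.62 and 2.67 in Hbs1l-/- MEFs, at 7.44 and 7.95 in Pelo-/- MEFs and at 9.77, 5.47 and 9.69 in the libraries labelled Upf2-/-. Hbs1l-/- libraries were thus far below the controls, Pelo-/- libraries just below the lowest control, and the libraries labelled Upf2-/- overlapped the controls. The log2 fold changes of Emcn RNA were -2.51 (SE 0.307), -0.47 (SE 0.163) and -0.21 (SE 0.248), respectively.

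Selp RNA was at 1.45, 1.69 and 1.03 TPM in controls and at 0.263, 0.218 and 0.394 TPM in Hbs1l-/- MEFs. It was at 1.97 and 2.44 TPM in Pelo-/- MEFs and at 1.505, 0.956 and 0.905 TPM in the libraries labelled Upf2-/-. The log2 fold changes, fitted on estimated counts, were -2.61 (SE 0.254), 0.49 (SE 0.283) and -0.48 (SE 0.233). Only the Hbs1l-/- libraries lay apart from the controls in CPM of estimated counts, and both Pelo-/- TPM values exceeded the highest control TPM.

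Rgs5 RNA was at 21.03, 19.4 and 16.6 TPM in controls, at 1.87, 2.29 and 3.50 TPM in Hbs1l-/- MEFs, at 7.06 and 4.30 TPM in Pelo-/- MEFs and at 12.4, 8.18 and 10.6 TPM in the libraries labelled Upf2-/-. Every mutant library was below every control. The log2 fold changes were -2.90 (SE 0.244), -1.93 (SE 0.200) and -0.89 (SE 0.183).

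Translational efficiency (TE) is the change in footprints relative to the change in RNA, fitted as an interaction between the kinds of library. For Emcn the log2 TE change was 0.09 (SE 0.393) in Hbs1l-/- MEFs, -4.01 (SE 0.386) in Pelo-/- MEFs and -2.73 (SE 0.391) in the libraries labelled Upf2-/-. For Selp it was 0.47 (SE 0.472), -4.14 (SE 0.491) and -2.20 (SE 0.416), and for Rgs5 it was 0.42 (SE 0.308), -2.06 (SE 0.402) and -1.59 (SE 0.288). In Hbs1l-/- MEFs the footprint and RNA changes of these 3 genes were thus of like size, whereas in the other mutants the footprint change exceeded the RNA change. Footprints and RNA came from different cultures and batches, so a difference between them cannot be told apart from a difference between cultures.

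**Figure D3:**
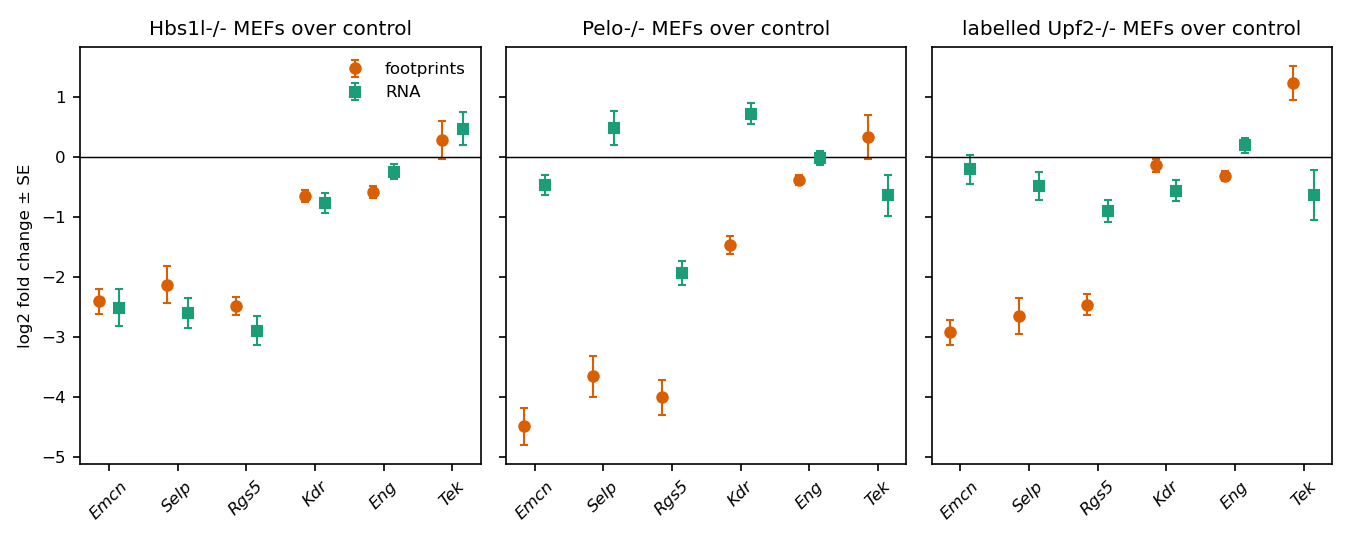
Log2 fold change over controls (y axis, ± SE) of footprints (circles) and RNA (squares) for 6 members in MEFs of each genotype. In Hbs1l-/- MEFs both readouts of Emcn, Selp and Rgs5 lie between -2.13 and -2.90, while in Pelo-/- MEFs their footprints lie between -3.66 and -4.49 and Selp RNA lies at 0.49.

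Kdr and Eng, which were not chosen on their values, were the members with the most footprints among those tested in MEFs. Of the 7 members eligible for testing, 3 passed the filter on low counts in Hbs1l-/- MEFs (Kdr, Eng and Tek). Of these, 2 were called, both lower, where 34.1% of all genes tested were called. Kdr footprints were at 57.0, 59.0 and 47.2 CPM in controls and at 34.9, 32.8 and 35.8 CPM in Hbs1l-/- MEFs, and the groups did not overlap. Kdr fell by 0.65 on the log2 scale (SE 0.0977, adjusted p = 0.00020, edgeR quasi-likelihood test with Benjamini-Hochberg adjustment over all genes). Eng was at 91.6, 90.7 and 94.8 CPM in controls and at 69.2, 66.1 and 50.2 CPM in Hbs1l-/- MEFs, and fell by 0.58 (SE 0.103, adjusted p = 0.00073, edgeR). Tek, at 1.37 to 1.79 CPM in controls and 1.51 to 2.31 CPM in Hbs1l-/- MEFs, had a log2 fold change of 0.28 (SE 0.317, adjusted p = 0.53, edgeR).

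In Pelo-/- MEFs 4 of the 7 members passed the filter. Cdh5 passed it through the Pelo-/- libraries, where it was high, and in neither of the other mutants, so its values are given with no test. Of the other 3 members Kdr and Eng were called, where 44.1% of all genes were called. Kdr was at 55.2, 63.7 and 45.3 CPM in controls and at 19.3, 24.2 and 16.7 CPM in Pelo-/- MEFs, a fall of 1.46 (SE 0.152, adjusted p = 4.7e-05, edgeR). Eng was at 89.4, 83.4 and 102 CPM in controls and at 76.7, 67.0 and 67.4 CPM in Pelo-/- MEFs, and fell by 0.38 (SE 0.0902, adjusted p = 0.0065, edgeR). Cdh5 was at 0.794, 0.245 and 0.714 CPM in controls, on 9, 3 and 8 reads, and at 2.58, 4.53 and 4.19 CPM in Pelo-/- MEFs, on 43, 74 and 109 reads. The 3 members that did not pass the filter are given as values, with no test. Pecam1 was at 0.781, 0.673 and 1.39 CPM in Pelo-/- MEFs against 0.0882, 0.408 and 0.179 in controls. Esam was at 0.540, 1.10 and 0.5003 CPM against 0.176, 0.408 and 0.446, and Tie1 at 0.120, 0.245 and 0.462 CPM against 0, 0.0816 and 0. Tek had a log2 fold change of 0.34 (SE 0.366, adjusted p = 0.48, edgeR).

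In the libraries labelled Upf2-/-, 3 members passed the filter and 2 were called, against 43.4% of all genes. Tek rose, from 1.41, 1.13 and 1.55 CPM to 4.19, 3.12 and 2.47 CPM (log2 fold change 1.23, SE 0.286, adjusted p = 0.0047, edgeR). Eng was at 87.7, 86.1 and 93.9 CPM in controls and at 79.5, 64.6 and 71.2 CPM, and fell by 0.32 (SE 0.0840, adjusted p = 0.0096, edgeR), a call lost without the second of the libraries labelled Upf2-/- (adjusted p = 0.054). Kdr, at 54.8, 63.0 and 47.2 CPM in controls and 44.1, 54.4 and 50.7 CPM in those libraries, overlapped the controls (log2 fold change -0.14, SE 0.112, adjusted p = 0.34, edgeR). Because the whole-gene counts of Upf2 cannot show whether its floxed part was lost, no direction here is ascribed to loss of Upf2.

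The VEGF receptor also differed between the mutants. Tested as an interaction, the footprint change of Kdr was lower in Pelo-/- than in Hbs1l-/- MEFs by -0.81 on the log2 scale (SE 0.195, adjusted p = 0.026, edgeR), where 5.55% of all genes were called. That call did not hold in 8 of the 12 fits that each left out 1 library, whose adjusted p reached 0.070 without the third Hbs1l-/- library. The other losses were without control 1 (adjusted p = 0.055) or control 3 (0.060) of the Hbs1l pool, the first Hbs1l-/- library (0.061), control 1 (0.068) or control 2 (0.063) of the Pelo pool, or the first (0.062) or the third (0.051) Pelo-/- library. The change was higher in the libraries labelled Upf2-/- than in Pelo-/- MEFs by 1.32 (SE 0.211, adjusted p = 0.0011, edgeR), where 13.0% were called. Between the libraries labelled Upf2-/- and Hbs1l-/- MEFs it differed by 0.51 (SE 0.159, adjusted p = 0.075, edgeR), where 4.93% were called, and it was called without control 3 of the Hbs1l pool (0.60, adjusted p = 0.035) or control 2 of the Upf2 pool (0.62, adjusted p = 0.027). Kdr and Tek were the 2 members with an unadjusted p under 0.05 in that last test, as were 19.8% of all genes, and DESeq2 called 0 members. No other member was called in these 3 tests. Each test counted the control libraries of both pools as separate samples, although those of the same number were close to repeats. With the replicate number as a block within each pool, the adjusted p of Kdr was 0.0029 for Pelo-/- minus Hbs1l-/- (edgeR). It was 0.094 for labelled Upf2-/- minus Hbs1l-/- (edgeR), and that for labelled Upf2-/- minus Pelo-/- stayed under 0.05. This block paired control and mutant libraries by number and did not link the repeated controls, so these values do not account for them.

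At the RNA level Kdr was the one member called, in each MEF comparison. Its RNA was at 2.15, 3.40 and 2.29 TPM in controls, 1.80, 1.46 and 1.42 TPM in Hbs1l-/- MEFs, 4.58 and 4.78 TPM in Pelo-/- MEFs and 1.77, 2.08 and 1.39 TPM in the libraries labelled Upf2-/-. Kdr RNA was thus below every control in Hbs1l-/- and labelled Upf2-/- libraries and above every control in Pelo-/- libraries. It fell by 0.77 (SE 0.167, adjusted p = 0.012, edgeR) in Hbs1l-/- MEFs, where 1 of 4 members that passed the filter and 23.1% of all genes were called. It rose by 0.73 (SE 0.182, adjusted p = 0.023, edgeR) in Pelo-/- MEFs, where 1 of 5 members and 32.1% of all genes were called. It fell by 0.56 (SE 0.173, adjusted p = 0.043, edgeR) in the libraries labelled Upf2-/-, where 1 of 5 members and 20.1% of all genes were called.

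These RNA calls of Kdr rested on few libraries. The Hbs1l-/- call was lost without the second Hbs1l-/- library (adjusted p = 0.051), and the Pelo-/- call without control 3 (0.059) or either Pelo-/- library (0.069 and 0.13). The call in the libraries labelled Upf2-/- was lost without control 1 (0.062) or 2 (0.18), or without the first (0.088), second (0.059) or the third (0.13) of those libraries. On log2(TPM + 1) with limma, the adjusted p was 0.067 for Hbs1l-/- and 0.18 for labelled Upf2-/-.

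The opposite directions of Kdr in Pelo-/- MEFs gave a log2 TE change of -2.17 (SE 0.254, adjusted p = 2.7e-05, edgeR), the only one of 3 members tested that was called there, where 44.6% of all genes were called. In the libraries labelled Upf2-/- 2 of 3 members were called against 20.3% of all genes. Tek TE rose by 1.85 (SE 0.501, adjusted p = 0.017, edgeR), on RNA of 11, 41 and 10 estimated reads, and was not called without RNA control 3 (adjusted p = 0.070). Eng TE fell by 0.53 (SE 0.153, adjusted p = 0.023, edgeR), and was not called without the second footprint library labelled Upf2-/- (adjusted p = 0.074). In Hbs1l-/- MEFs no member was called for TE by edgeR or by DESeq2, and none had an unadjusted p under 0.05, where 0.0336% of all genes were called and 17.3% had an unadjusted p under 0.05. In Pelo-/- MEFs Tek had a TE change of 1.02 (adjusted p = 0.14, edgeR), called without control 3 of the Pelo pool (1.44, adjusted p = 0.035). The log2 TE changes in Hbs1l-/- MEFs were 0.14 (SE 0.196) for Kdr, -0.14 (SE 0.391) for Tek and -0.31 (SE 0.174) for Eng.

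Eng RNA was at 13.7, 20.4 and 21.1 TPM in controls, 18.5, 15.6 and 13.9 TPM in Hbs1l-/- MEFs, 19.5 and 18.5 TPM in Pelo-/- MEFs and 18.3, 22.4 and 20.9 TPM in the libraries labelled Upf2-/-. All 3 overlapped the controls, with log2 fold changes of -0.25, -0.02 and 0.19 (adjusted p = 0.17, 0.91 and 0.28, edgeR). Tek RNA lay between 0.137 and 0.195 TPM in controls, and its log2 fold changes were 0.47, -0.64 and -0.63 (adjusted p = 0.23, 0.19 and 0.30, edgeR). Esam RNA, on 7, 2 and 21 estimated reads in controls, was at 0.0493 to 0.262 TPM there, at 0.343 and 0.2899 TPM in Pelo-/- MEFs and at 0.278 to 0.521 TPM in the libraries labelled Upf2-/-. It passed the filter in these 2 mutants, where it was higher in every library, and not in Hbs1l-/- MEFs, so it is counted among the 5 members that passed there and its values are given with no test. Cdh5 and Tie1 RNA did not pass the filter.

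Pecam1 showed a different mismatch, between RNA and footprints within the same genotype. Its RNA was at 4.89 ± 1.11 TPM in control MEFs, above Kdr at 2.61 ± 0.687 and Selp at 1.39 ± 0.334, and yet its coding sequence held only 1 to 9 footprints in each control library. Of the Pecam1 TPM in control MEFs, 97.9% was assigned to retained intron transcripts, and 4.75 ± 1.11 TPM to a single transcript of 2142 bases. Protein-coding Pecam1 transcripts summed to 0.102 ± 0.00969 TPM in controls, and the retained intron share was 99.3% in Hbs1l-/-, 96.6% in Pelo-/- and 96.2% in labelled Upf2-/- libraries. Pecam1 RNA had log2 fold changes of -0.50, -0.41 and -0.70 (adjusted p = 0.13, 0.31 and 0.0997, edgeR). The Hbs1l-/- change was called with no filter (adjusted p = 0.032). That in the libraries labelled Upf2-/- was called with DESeq2 (0.029), with no filter (0.0097), with a replicate block (0.019) and without the first of those libraries (0.046), and its adjusted p ranged up to 0.31 over the fits that left out another library. By contrast, 99.9% of Emcn, 100% of Rgs5, 99.3% of Kdr and 96.8% of Eng TPM in controls was assigned to protein-coding transcripts, and 89.9% of Selp.

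**Figure D4:**
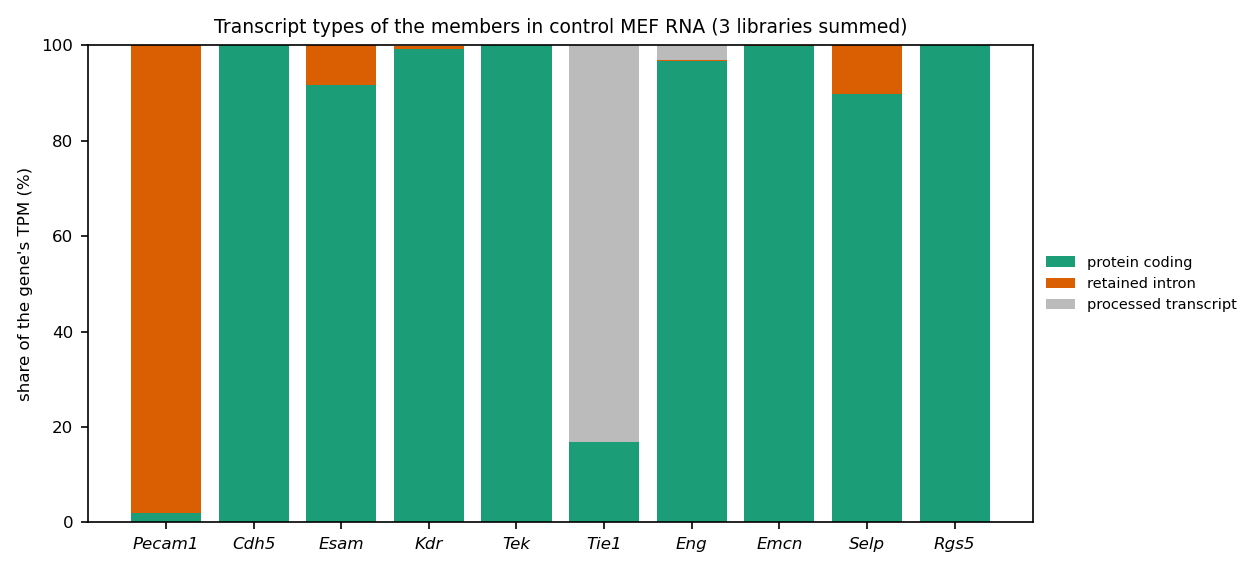
Share of each member's TPM (%, y axis) by annotated transcript type in the 3 control MEF RNA libraries (summed); genes are on the x axis. Retained intron transcripts take 97.9% of Pecam1, while protein-coding transcripts take most of the other members except Tie1, which is at 0.0193 TPM or lower in each library.

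Other genes known from vessel cells gave a mixed picture in MEFs. From a list of 38 further endothelial genes, 20 were tested in Hbs1l-/- MEFs, of which 8 rose and 3 fell, with a median log2 fold change of 0.13 against -0.01 over all genes. In Pelo-/- MEFs 10 of 24 rose and 5 fell (median 0.61 against 0.00), and in the libraries labelled Upf2-/- 3 of 20 rose and 4 fell (median -0.02 against 0.00). A gene low in controls can pass the filter through the mutant libraries alone, and a gene low in mutants through the controls alone. These counts can therefore lean either way. Over all genes 34.1%, 44.1% and 43.4% were called in these 3 comparisons, so that the called share of the list was above that of all genes in the first and second and below it in the libraries labelled Upf2-/-. The most abundant in controls were Flt1 (VEGF receptor 1), Ecscr, S1pr1 (a sphingosine 1-phosphate receptor) and Flt4 (VEGF receptor 3). Flt1 was at 286 ± 44.1 CPM in controls of the Hbs1l pool and 309 ± 8.35, 273 ± 21.8 and 282 ± 13.3 CPM in Hbs1l-/-, Pelo-/- and labelled Upf2-/- libraries, and was not called (adjusted p = 0.36, 0.55 and 0.92, edgeR).

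Among those that changed, Myct1 had log2 fold changes of -3.42, -3.79 and -3.83 in Hbs1l-/-, Pelo-/- and labelled Upf2-/- libraries, from 2.49 ± 0.887 CPM in controls of the Hbs1l pool. Falling from so low a level, it can pass the filter through the controls alone, so its values are given with no test. Ptprb, which encodes the phosphatase VE-PTP that acts on TIE2, had log2 fold changes of -1.44, -2.51 and -1.18 (adjusted p = 1.2e-05, 2.7e-06 and 4.8e-05, edgeR). Ecscr had changes of -0.85, -0.76 and -1.69, each called. Myct1, Ptprb and Ecscr thus fell in each mutant. More genes of the list rose than fell in Hbs1l-/- MEFs (8 against 3) and in Pelo-/- MEFs (10 against 5). Erg, an ETS transcription factor of endothelium, rose by 1.41 in Hbs1l-/- MEFs (adjusted p = 0.0063, edgeR), and Apln, a peptide ligand of endothelial tip cells, rose by 1.36 (adjusted p = 0.00032, edgeR).

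For the 14 further pericyte and mural genes, 11 were tested in Hbs1l-/- MEFs, where 3 rose and 2 fell. In Pelo-/- MEFs 1 of 12 rose and 3 fell, and in the libraries labelled Upf2-/- 4 of 12 rose and 2 fell, beside the same shares of 34.1%, 44.1% and 43.4% of all genes called. The medians were 0.19, 0.24 and 0.40, beside -0.01, 0.00 and 0.00 over all genes. Rgs4, a relative of Rgs5, fell in all 3, by 0.98, 1.52 and 0.53 on the log2 scale, as did Mcam (CD146), by 0.94, 1.32 and 1.45. Cspg4 (NG2) was at 584 ± 28.3 CPM in controls of the Hbs1l pool, and rose by 0.19 in Hbs1l-/- and by 0.60 in labelled Upf2-/- libraries. Pdgfrb, the PDGF receptor of pericytes, rose by 0.21 and 0.48 in those 2 and had a log2 fold change of 0.22 (adjusted p = 0.074, edgeR) in Pelo-/- MEFs.

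Of 20 ligands and partners of the members, 17 were tested in each MEF footprint comparison. In Hbs1l-/- MEFs 4 rose and 4 fell, in Pelo-/- MEFs 6 rose and 5 fell, and in the libraries labelled Upf2-/- 4 rose and 6 fell, again beside 34.1%, 44.1% and 43.4% of all genes called. The medians were -0.10, 0.06 and -0.15, beside -0.01, 0.00 and 0.00 over all genes. Angpt1, the agonist of TIE2, rose by 1.26, 1.41 and 1.57 on the log2 scale (adjusted p = 0.00040, 0.014 and 0.0071, edgeR), and Vegfd rose by 1.04, 1.30 and 1.38. Pgf, a ligand of VEGF receptor 1, fell by 0.98, 1.52 and 1.44. Jup (plakoglobin), a junctional partner of VE-cadherin, fell by 0.86, 1.48 and 0.55, whereas Ctnnb1 (beta-catenin) was at 1215 ± 54.5 CPM in controls of the Hbs1l pool and was not called in any of the 3. Nrp1, a coreceptor of VEGF receptor 2, had changes of -0.17 (adjusted p = 0.061), -0.68 (adjusted p = 4.0e-05) and -0.24 (adjusted p = 0.0085, edgeR).

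Markers of other cell types moved with the MEF groups. The summed level of 6 smooth muscle markers was 20340 to 23311 CPM in controls of the Hbs1l pool and 12425 to 13935 CPM in Hbs1l-/-, 10956 to 15725 CPM in Pelo-/- and 11521 to 15401 CPM in labelled Upf2-/- libraries, with none of the 6 at 0. Of these 6 markers, 5 fell in Hbs1l-/- and 4 in Pelo-/- MEFs and none rose, whereas in the libraries labelled Upf2-/- 3 fell (Acta2, Cnn1 and Tagln) and 2 rose (Myh11 and Smtn). That of 13 macrophage and leukocyte markers was 160 to 210 CPM in those controls and 274 to 375, 541 to 772 and 214 to 262 CPM, respectively, with none at 0 in all libraries of a group. These markers also moved with the mismatch of footprints and RNA. Their footprints rose for 11 of 12 tested in Hbs1l-/-, 12 of 12 in Pelo-/- and 6 of 12 in labelled Upf2-/- libraries, and their RNA for 11, 1 and 0 of 13, so that TE rose for 0, 12 and 4 of 12 (median log2 TE change -0.16, 1.57 and 0.63). Over all genes, 34.1%, 44.1% and 43.4% were called for footprints in these 3 comparisons. The shares were 23.1%, 32.1% and 20.1% for RNA and 0.0336%, 44.6% and 20.3% for TE. Of the megakaryocyte and platelet markers, which bear on Selp, 6 were used here and summed to 3.28 to 4.00 CPM in those controls, 4.54 to 8.18 CPM in Hbs1l-/-, 15.6 to 24.9 CPM in Pelo-/- and 2.94 to 3.35 CPM in labelled Upf2-/- libraries, with Gp9 at 0 throughout. The 5 epithelial markers summed to 36.7 to 53.0 CPM in those controls and 15.3 to 28.2, 22.8 to 31.9 and 19.3 to 25.0 CPM in Hbs1l-/-, Pelo-/- and labelled Upf2-/- libraries, lower in every mutant library. Krt18 alone made up most of this sum, at 44.7 ± 8.49 CPM in those controls, whereas Cdh1 and Epcam, at 0.163 ± 0.142 and 0.0544 ± 0.0474 CPM there, were at 3.70 ± 1.53 and 1.81 ± 0.905 CPM in Pelo-/- MEFs (mean ± SD, n = 3). The 11 fibroblast markers summed to 28931 to 30030 CPM in those controls and 34571 to 40748 CPM in mutant libraries. Their part in the results on the members was not tested.

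Likeness of pattern was described over 12 units, the 9 mutant libraries and the 3 control numbers averaged over pools, among 12028 genes with a mean of at least 1 CPM. The points share controls and genotype, so no p is given. The genes most like Emcn by Pearson correlation of log2(CPM + 1) were Trp53inp1 (r = 0.98), Tmem50a, Sorbs2, Adgrf5 and Hsd17b7 (r = 0.97 each). Those most like Selp were Tdrp, Cdkn2a, Llgl2 (r = 0.98 each), Tmem38a and Snap47 (r = 0.97 each), and those most like Rgs5 were Tspan2, Myo1d, Gucy1b1, Tll1 and Sh3bgrl (r = 0.98 each). Of these 15 genes, Sorbs2 was at 77.3 CPM in controls and 24.2, 16.4 and 24.2 CPM in Hbs1l-/-, Pelo-/- and labelled Upf2-/- MEFs, and Cdkn2a at 81.3 CPM against 24.9, 13.4 and 15.9 CPM. Others fell far less, such as Tmem50a, at 116 CPM against 94.0, 86.4 and 91.8 CPM. Snap47 was at 153 CPM against 118, 104 and 107 CPM, so a high r does not mean a fall of like size. Among Emcn, Selp and Rgs5 themselves r was 0.91 to 0.96, which restates their choice. The other members were less like them or went the opposite way: with Emcn, r was 0.74 for Kdr, 0.58 for Eng, -0.41 for Tek and -0.71 for Cdh5.

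In E8.5 embryos, which were not used to choose the genes, Pecam1 was the one member that passed the test. It was at 35.4, 27.8 and 34.2 CPM in wild-type and at 74.1, 70.0 and 90.3 CPM in Hbs1l-/- embryos, a rise of 1.27 on the log2 scale (SE 0.183, adjusted p = 0.0033, edgeR), and the groups did not overlap. This was 1 of 9 members that passed the filter, where 1.87% of all genes were called, and DESeq2 called Cdh5 as well. The call of Pecam1 was lost without wild-type replicate 2 (log2 fold change 1.16, adjusted p = 0.054), and over the other fits that left out 1 library the change was 1.16 to 1.34. Cdh5 was at 148, 143 and 139 CPM in wild type and at 227, 156 and 350 CPM in Hbs1l-/- embryos, higher in each of the latter (log2 fold change 0.76, SE 0.224, adjusted p = 0.098, edgeR). It was called without the first (0.81, adjusted p = 0.024) or second (1.00, adjusted p = 0.017) Hbs1l-/- library, and without the third its change was 0.42 (adjusted p = 0.29). All genes called numbered 214, and 2309, 119 and 107 without the first, the second or the third Hbs1l-/- library.

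The other members did not pass the test in embryos. Of the 9 members that passed the filter, 4 (Pecam1, Cdh5, Rgs5 and Tie1) had an unadjusted p under 0.05 (edgeR), as did 18.6% of all genes. Rgs5 was at 20.1, 25.5 and 26.5 CPM in wild type and at 52.2, 29.8 and 36.9 CPM in Hbs1l-/- embryos (log2 fold change 0.73, SE 0.236, adjusted p = 0.13, edgeR), and was higher in each mutant embryo library, whereas the other 14 pericyte and mural genes summed to 220 to 369.9 CPM in Hbs1l-/- embryos against 324 to 348 CPM in wild type. Emcn, at 14.2, 11.1 and 13.1 CPM, was at 5.65, 10.03 and 10.48 CPM in Hbs1l-/- embryos (-0.58, SE 0.331, adjusted p = 0.36). Tie1 was at 38.6, 31.6 and 40.6 CPM against 35.3, 17.8 and 19.9 CPM in Hbs1l-/- embryos (-0.57, SE 0.258, adjusted p = 0.26), and its change was -0.97 without the first Hbs1l-/- library (adjusted p = 0.0073), where calls over all genes rose to 2309, -0.38 without the second (adjusted p = 0.60) and -0.44 without the third (adjusted p = 0.46). Kdr, Tek, Esam and Eng had log2 fold changes of 0.20, -0.17, 0.10 and -0.27 (adjusted p = 0.46, 0.62, 0.83 and 0.56, edgeR), with all 4 overlapping between the groups.

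Other cell types' genes differed between these embryo groups. Summed over 10 trophoblast markers, a list added after the embryo values were seen, the level was 66.1, 48.7 and 68.8 CPM in wild type and 318, 185 and 1363 CPM in Hbs1l-/- embryos, given with no test. The third Hbs1l-/- library was the highest both for these markers and for Pecam1 and Cdh5, and without it the change of Pecam1 was 1.16 (adjusted p = 0.0071). The 6 erythroid markers summed to 13079, 13888 and 17075 CPM in wild type and to 4433, 8680 and 3176 CPM in Hbs1l-/- embryos. Of these markers 3 of 6 fell, where 1.87% of all genes were called. The summed levels of 11 fibroblast markers (1155 to 1567 CPM in Hbs1l-/- against 1630 to 1707 CPM in wild type), 6 smooth muscle markers (567 to 678 against 805 to 857 CPM) and 5 epithelial markers (1995 to 2302 against 1557 to 1746 CPM) did not overlap between the groups either. Of the trophoblast markers, Prl3b1 was at 0 in all libraries of both groups, and no erythroid marker was. The part of these differences in the change of Pecam1 was not tested.

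Among further genes of the list in embryos, 1 of 34 endothelial genes tested rose (Flt1, by 0.88, adjusted p = 0.023, edgeR) and 1 fell (Stab1, a scavenger receptor, by 0.84, adjusted p = 0.048, edgeR), with a median of -0.12 against 0.01 over all genes. All genes called were 1.87%, and 7 of the 34 had an unadjusted p under 0.05, as did 18.6% of all genes. Flt1 is also strongly expressed in trophoblast. The summed level of the 38 endothelial genes was 1805.5 to 2007.3 CPM in Hbs1l-/- embryos and 1690.5 to 1718.7 CPM in wild type, unlike the median. Of 10 pericyte and mural genes and 15 ligands and partners, 0 were called by edgeR or by DESeq2, with 2 and 1 at an unadjusted p under 0.05 and medians of -0.31 and -0.04.

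In P14 cerebella, where Hbs1l was deleted in granule cells, no member was called by edgeR or DESeq2, and 2 of the 9 that passed the filter (Tek and Esam) had an unadjusted p under 0.05, where 0.0624% of all genes were called and 13.4% had an unadjusted p under 0.05. All 9 log2 fold changes were negative, from -0.13 for Rgs5 to -0.51 for Kdr, with a median of -0.33 against 0.00 over all genes. Kdr was at 115, 112 and 54.2 CPM in controls and at 73.2, 60.6 and 63.3 CPM in Hbs1l cKO cerebella (adjusted p = 0.44, edgeR). Eng was at 82.4, 73.1 and 49.1 CPM in controls and at 43.5, 47.8 and 58.7 CPM (-0.44, adjusted p = 0.39), Tek at 29.7, 24.8 and 18.4 against 16.1, 17.1 and 19.8 CPM (-0.45, adjusted p = 0.35), and Esam at 59.2, 56.8 and 40.6 against 37.0, 39.1 and 44.1 CPM (-0.38, adjusted p = 0.35, edgeR). In each of these 4 genes the third control library was the lowest control, within the cKO range for Eng, Tek and Esam and below it for Kdr.

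Without that control library, Kdr was called at -0.79 (adjusted p = 0.019) and Esam at -0.53 (adjusted p = 0.044, edgeR), while the calls over all genes rose from 9 to 560. Cdh5 was at 82.4, 76.5 and 51.9 CPM in controls and 56.0, 56.0 and 63.2 CPM in cKO cerebella (-0.26, adjusted p = 0.56). Pecam1 was at 35.6, 33.3 and 30.3 CPM and 26.1, 21.9 and 30.7 CPM (-0.33, adjusted p = 0.38, edgeR). Tie1, Emcn and Rgs5 overlapped between the groups, with adjusted p of 0.56, 0.61 and 0.74 (edgeR). Rgs5 was the most abundant member here, at 133, 157 and 129 CPM in controls and 120, 113 and 149 CPM in cKO cerebella.

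The 37 further endothelial genes tested in cerebella had a median of -0.30, the 14 pericyte and mural genes a median of -0.071, and the 16 ligands and partners a median of -0.047, against 0.00 over all genes. Of these lists 0 genes were called by edgeR or by DESeq2, with 6 of 37, 1 of 14 and 3 of 16 at an unadjusted p under 0.05, beside 13.4% of all genes. The summed level of the 38 endothelial genes was 1238.5, 1214 and 1045 CPM in controls, lowest in the third, and 904, 945 and 1016 CPM in cKO cerebella. The 6 cerebellum markers, most of them genes of neurons, summed to 7178 to 7321.5 CPM in controls and 5044 to 5805 CPM in cKO cerebella. Their part in the values of the members was not tested.

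**Figure D5:**
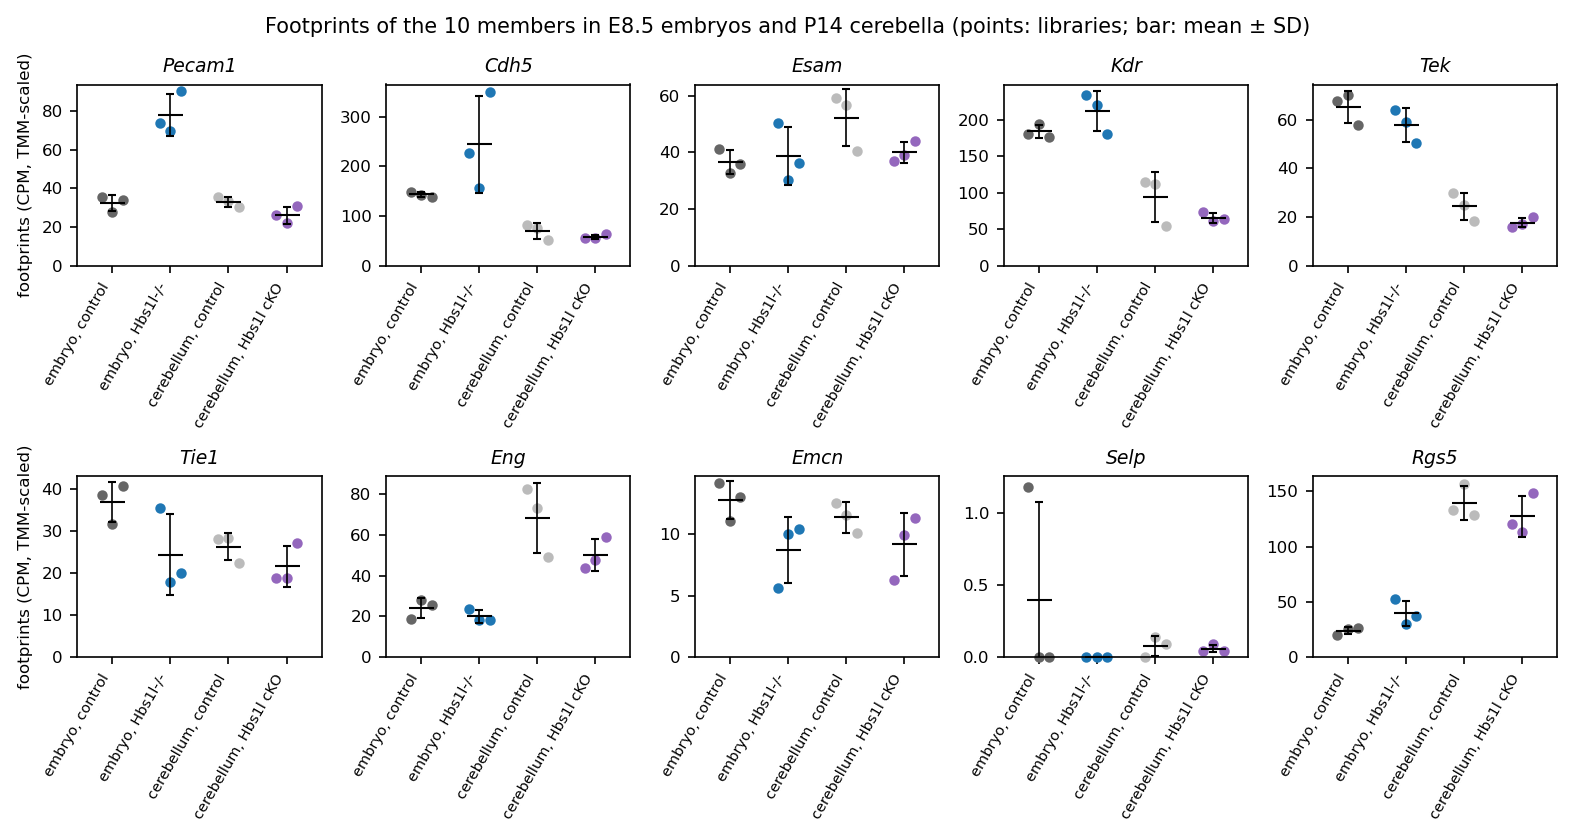
Footprints (CPM after TMM scaling, y axis; tissues scaled separately) of the 10 members in E8.5 embryos and P14 cerebella (x axis); points are libraries, and bars give the mean and SD of 3 libraries. Pecam1 is higher in all 3 Hbs1l-/- embryo libraries (70.0 to 90.3 CPM) than in wild type, and Selp reaches at most 1.18 CPM.

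The change in embryos was set against that in cerebella as an interaction over all 4 groups, where 0.732% of all genes were called. Pecam1 was the one member called of the 9 that passed the filter, with a difference of 1.60 on the log2 scale (embryo minus cerebellum, SE 0.242, adjusted p = 0.011, edgeR). This call held in all 12 fits that left out 1 library, with differences of 1.48 to 1.74. The next largest were Cdh5 at 1.02 (SE 0.322, adjusted p = 0.14), Rgs5 at 0.87 (SE 0.279, adjusted p = 0.15) and Kdr at 0.71 (SE 0.309, adjusted p = 0.28, edgeR). With Pecam1, these made 4 of 9 members with an unadjusted p under 0.05 (edgeR), as had 15.7% of all genes. Kdr was called in this test as well without the third cerebellum control (0.97, adjusted p = 0.025), where calls over all genes rose from 107 to 257. Tissue, stage, strain, batch and the kind of deletion (constitutive in embryos, conditional over a null allele in cerebella) cannot be told apart in this comparison.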

How the data were processed

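Ribosome footprints of 30 libraries and RNA of 11 MEF libraries were used. The footprint files hold raw counts per gene, which the authors made by clipping adapters, removing rRNA, snoRNA and tRNA reads with Bowtie2 2.2.3, aligning with HISAT2 2.1.0 to mm10 and counting reads in coding sequence with featureCounts. The RNA files hold estimated counts and TPM per transcript, deposited by the authors from kallisto 0.42.4. Transcripts were summed per gene and estimated counts rounded to whole numbers.

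Histone genes were left out of the tests, a step that the study describes for its differential footprint and TE analysis. Genes passing filterByExpr were tested with the edgeR 4.0.16 quasi-likelihood test (R 4.3.3) with TMM factors, two-sided, with Benjamini-Hochberg adjustment over all genes tested and a threshold of 0.05. TE and differences between comparisons were interaction terms. Simulated counts were fitted for the embryo and Pelo-/- MEF footprint comparisons only, with outcomes not given here. They did not cover the RNA, TE or interaction tests. DESeq2 1.42.0, limma 3.58.1 on log2(TPM + 1), RLE factors, no filter, a replicate block, controls summed over pools, and each library left out in turn were alternatives. CPM used TMM-scaled totals, set separately for embryos, cerebella, MEF footprints and MEF RNA. Each MEF comparison used the controls of its own pool.

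The members and all lists were chosen with earlier results of these data known. A marker of the platelet list is not reported here and was left out of its sums. Named genes were all members, the targeted genes, up to 4 genes of each list with the highest CPM in control MEFs, up to 4 called genes of each list by size, and the 5 genes most like each of Emcn, Selp and Rgs5. Each MEF replicate came from an individual embryo, each cerebellum replicate from 1 animal and each embryo replicate from pooled embryos, so p-values measure the spread between such samples.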

Additional observations from a re-analysis of the deposited data

Results flagged for a closer look

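Loss of Hbs1l in embryos and its conditional deletion in cerebella went with different changes of Pecam1, and the MEF genotypes with different changes of Kdr, by tests of the difference. The change of Pecam1 was higher in embryos than in cerebella by 1.60 on the log2 scale (adjusted p = 0.011, edgeR). The footprint change of Kdr was lower in Pelo-/- than in Hbs1l-/- MEFs by -0.81 (adjusted p = 0.026, edgeR), a call lost in 8 of 12 fits that left out 1 library (adjusted p up to 0.070), and higher in the libraries labelled Upf2-/- than in Pelo-/- MEFs by 1.32 (adjusted p = 0.0011, edgeR). The controls of the pools were close to repeats in both tests of Kdr.

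At the RNA level, every library of one genotype lay on one side of the controls and every library of the other genotype on the opposite side in 3 cases, and these differences were not tested. How many of all genes separated in this way is not given here. Kdr RNA differed by -1.50 (Hbs1l-/- minus Pelo-/-) and by 1.29 (Pelo-/- minus labelled Upf2-/-), and Tek RNA by 1.11 (Hbs1l-/- minus Pelo-/-).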

How the results depend on the processing

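No called fold change of a member changed sign in 214 values under alternatives, and 16 of 686 uncalled values did. Members called in embryos numbered 1, and 2 with DESeq2, with no filter and with a replicate block. In Hbs1l-/- RNA 1 member was called, 2 with no filter and 0 with limma, and in labelled Upf2-/- RNA 1, 2 with DESeq2, with no filter and with the replicate block, and 0 with limma. For TE in Pelo-/- MEFs, 1 became 3 with no filter, adding members that had not passed it in the main fit. Pecam1, which did not pass it there, was called in the 3 fits without 1 library in which it did pass. With each library left out in turn, the members called ranged from 0 to 3 in embryos, 0 to 2 in cerebella, 1 to 2 in labelled Upf2-/- footprints, 0 to 1 in each RNA comparison, 1 to 3 for TE in Pelo-/-, 1 to 2 for TE in labelled Upf2-/-, 1 to 2 between embryo and cerebellum, and 0 to 1 for Pelo-/- minus Hbs1l-/- and for labelled Upf2-/- minus Hbs1l-/- footprints; the cause was not tested.

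Among values given with no test, Rgs5 in labelled Upf2-/- minus Hbs1l-/- footprints was 0.03, -0.013 under the replicate block and -0.13 to 0.27 with 1 library left out. On leaving out 1 library, Selp there ranged from -0.83 to 0.13, Emcn RNA in labelled Upf2-/- from -0.37 to 0.075, and the TE change in Hbs1l-/- from -0.30 to 0.44 for Emcn and from -0.17 to 0.77 for Selp. No comparison had every same-numbered pair of control and mutant libraries correlated above 0.1, so between control and mutant the numbers were taken as names only. Between pools they marked controls close to repeats, which the replicate block, set within each pool, did not link. The replicate block values of Kdr are given with those tests.

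Over all genes, 214 were called in embryos (432 with DESeq2, 703 with no filter, 564 with the replicate block), 9 in cerebella (484, 16 and 0), 4 for TE in Hbs1l-/- (334 with DESeq2, 71 with the block) and 107 between embryo and cerebellum (585 with DESeq2). With 1 library left out these counts ranged from 28 to 2309 in embryos, 0 to 560 in cerebella, 0 to 67 for TE in Hbs1l-/- and 8 to 1123 between embryo and cerebellum, so the shares of all genes called there depend on single libraries. They ranged from 1820 to 2679, 1537 to 4840 and 1827 to 3246 for RNA in Hbs1l-/-, Pelo-/- and labelled Upf2-/-, from 1507 to 2840 for TE in labelled Upf2-/- (2446), and from 384 to 735 for Pelo-/- minus Hbs1l-/- (695) and 353 to 583 for labelled Upf2-/- minus Hbs1l-/- footprints. For labelled Upf2-/- minus Pelo-/- footprints (1648) the range was 1097 to 1743. With the block, 4730 calls in Pelo-/- RNA became 2999 and 608 in labelled Upf2-/- minus Hbs1l-/- became 394. With limma, RNA calls were 1967, 2454 and 1712 for Hbs1l-/-, Pelo-/- and labelled Upf2-/-, against 3527, 4730 and 3207. Embryo libraries were the shallowest, and Selp in both tissues was too low to test.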
